A study of Mus musculus with 10 samples.

Results

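The 34 genes described here carry sugar into cells, break it down by glycolysis, pass on the resulting pyruvate and lactate, or answer to low oxygen. They were chosen by symbol as a list of 6 sugar transporters, 15 glycolytic enzymes, 5 genes of lactate and pyruvate handling, and 8 genes of the hypoxia-inducible factor (HIF) pathway. The list was drawn up with earlier results of these data known. All 34 were among the 17016 gene symbols measured, and all 34 were among the 14548 genes tested. The RNA-seq libraries were made from the whole skin of BALB/c mice, all of them female and between 10 and 11 weeks old. The mice of both groups had received 5% imiquimod cream on the shaved back for 5 days. Imiquimod activates the innate immune receptor TLR7 and is used to produce a skin inflammation that models psoriasis. One group was also given quinpirole, which activates the dopamine receptor DRD2, in 5 injections into the peritoneum, and the other group was given vehicle. Each group had 5 libraries. The comparison is thus between imiquimod-treated skin with and without quinpirole, and untreated skin was not analysed here. Whether each sample is its own mouse is not said in the labels, and p-values therefore reflect sample-to-sample spread, which may be technical.

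In glycolysis, hexokinase traps glucose inside the cell as a phosphate ester. Phosphofructokinase commits the sugar to breakdown, and later steps yield ATP and pyruvate. Lactate dehydrogenase turns pyruvate into lactate, monocarboxylate transporters move lactate across the cell membrane, and pyruvate dehydrogenase kinases inhibit pyruvate dehydrogenase. The HIF transcription factor is destroyed in well-oxygenated cells after prolyl hydroxylases mark it. When oxygen is short it binds a short DNA core, the hypoxia response element, near many glycolytic genes and raises their transcription. Keratinocytes use glucose taken up through the transporter Glut1, encoded by Slc2a1, and proliferating epidermis is known for a high use of glucose. Skeletal muscle, which lies under mouse skin as a thin sheet and can come along with a whole-skin sample, uses its own set of glycolytic isozymes.

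The values are normalised counts scaled to library size (CPM), in which 1 read was worth 0.119 to 0.146 CPM. Reads per library, summed over the gene symbols measured, ranged from 6763367 to 8361877. No member was at 0 in any library. Counts were divided by the length of each gene's merged exons (CPM per kb) to set genes side by side. Merged exons join all annotated transcripts, so rankings and shares per kb depend on these lengths. By this measure Gapdh, the glyceraldehyde-phosphate dehydrogenase of glycolysis, was the most abundant member in vehicle libraries, at 513 ± 94.5 CPM per kb (SD, n = 5). Aldoa, the main aldolase, followed at 375 ± 82.4 CPM per kb and Ldha, the lactate dehydrogenase subunit that favours lactate formation, at 232 ± 49.0 CPM per kb. Pkm, the pyruvate kinase of skin and muscle, was at 171 CPM per kb and Hif1a, the oxygen-regulated HIF subunit, at 102 CPM per kb. At the low end stood Slc2a5, at 0.356 ± 0.0826 CPM per kb. Slc2a1 held 86.4% ± 3.14 of the summed CPM per kb of the 6 sugar transporters in vehicle and 82.3% ± 5.41 with quinpirole.

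The HIF core in promoter DNA is written ACGTG or GCGTG and was searched on both strands in the 250 bases before each start site. RefSeq promoters on the build GRCm38.p6 were at hand for 30 of the 34 members, with 43 entries. They were not at hand for Slc2a3, Slc2a4, Ndrg1 and Angptl4. The core stood in 35 of the 43 entries (81.4%), against 38.6% of all 32851 promoter windows of the same length. ACGTG alone was in 44.2% of the members' entries and in 16.6% of all windows, and GCGTG alone in 53.5% and in 28.2%. The letters CACGTG, an E-box that other factors also bind and that contains ACGTG, were in 14.0% and in 6.02%. Of the 30 members with an entry, 27 held the core in at least 1 entry, and Slc2a5, Gpi1 and Tpi1 held it in none. A match of these letters is not a measured binding site. Windows of the same gene overlap for Aldoa, Eno1 and Pfkm, so some sites were counted more than once and the entries are not independent. The list was drawn up to hold glycolytic genes and HIF targets, so its higher share is no independent result. The windows of 6 members are printed because the results below turn on Slc2a5, Ldhb, Egln3 and Bnip3, while Ldha and Pgk1 are classical HIF targets. Capitals mark the core on either strand, so that CACGT and CACGC are the core read from the opposite strand. Each runs 5′ to 3′ on the strand of its gene, ends at the base before the start site, and is the first listed entry of that gene. Slc2a5 is at chr4:150119094-150119343 (+ strand), Ldhb at chr6:142507958-142508207 (− strand), Egln3 at chr12:54203875-54204124 (− strand), Bnip3 at chr7:138909507-138909756 (− strand), Ldha at chr7:46845554-46845803 (+ strand) and Pgk1 at chrX:106186850-106187099 (+ strand).
Slc2a5: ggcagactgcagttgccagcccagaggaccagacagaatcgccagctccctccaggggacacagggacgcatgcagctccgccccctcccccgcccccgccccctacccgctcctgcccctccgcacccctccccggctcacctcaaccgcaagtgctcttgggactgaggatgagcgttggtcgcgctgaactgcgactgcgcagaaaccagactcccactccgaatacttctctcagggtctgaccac
Ldhb: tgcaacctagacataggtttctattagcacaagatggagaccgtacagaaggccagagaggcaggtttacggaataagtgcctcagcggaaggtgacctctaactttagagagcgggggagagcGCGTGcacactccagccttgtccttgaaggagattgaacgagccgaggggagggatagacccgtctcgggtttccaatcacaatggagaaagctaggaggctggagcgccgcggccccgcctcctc
Egln3: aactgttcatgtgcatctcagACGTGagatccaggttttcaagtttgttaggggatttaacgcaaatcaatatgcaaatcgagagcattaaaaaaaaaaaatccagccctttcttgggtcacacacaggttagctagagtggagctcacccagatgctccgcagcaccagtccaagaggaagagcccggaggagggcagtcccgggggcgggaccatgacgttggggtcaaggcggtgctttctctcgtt
Bnip3: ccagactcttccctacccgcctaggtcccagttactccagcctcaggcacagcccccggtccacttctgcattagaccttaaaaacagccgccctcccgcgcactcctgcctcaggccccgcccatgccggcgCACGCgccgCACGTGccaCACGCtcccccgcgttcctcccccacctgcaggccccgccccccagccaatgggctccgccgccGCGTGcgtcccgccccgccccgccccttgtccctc
Ldha: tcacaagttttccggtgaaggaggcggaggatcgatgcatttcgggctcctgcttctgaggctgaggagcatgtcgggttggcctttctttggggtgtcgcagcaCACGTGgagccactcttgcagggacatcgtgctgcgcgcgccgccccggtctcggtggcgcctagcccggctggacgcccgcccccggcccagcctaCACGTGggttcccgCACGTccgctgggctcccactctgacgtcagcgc
Pgk1: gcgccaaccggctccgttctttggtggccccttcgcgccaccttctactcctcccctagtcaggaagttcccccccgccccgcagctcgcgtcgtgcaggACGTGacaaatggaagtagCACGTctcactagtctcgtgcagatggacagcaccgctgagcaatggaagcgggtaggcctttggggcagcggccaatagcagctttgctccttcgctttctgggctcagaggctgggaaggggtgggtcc

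No member passed the test for a difference between the groups. The test was limma on log2 of CPM plus 1, with p-values adjusted by the Benjamini-Hochberg method over all 14548 genes and called below 0.05. It called 0 of the 34 members, where the background was 0.0206% of all genes (3 of 14548, with 0.0137% higher and 0.00687% lower). Without adjustment 6 members (17.6%) had p below 0.05, 5 of them higher with quinpirole and 1 lower, against 11.4% of all genes (6.92% higher and 4.47% lower). The groups of 1 member, Slc2a5, did not overlap, against 2.20% of all genes (1.34% higher and 0.859% lower). Since the members were chosen with earlier results known, these shares are no independent result. The log2 fold changes of quinpirole over vehicle were above 0 for 20 members and below 0 for 14, with a median of 0.06. Over all genes 49.6% were above 0 and the median was -0.0021. On the reads behind the values, edgeR's quasi-likelihood test called 0 members (6 at an unadjusted p below 0.05), where it called 0.00687% of all genes. DESeq2 called 1 member, Slc2a5, where it called 1.51% of all genes, and 7 members had an unadjusted p below 0.05 with it. The shares of all genes given for edgeR and DESeq2 are for adjusted calls. Their shares at an unadjusted p are not given here, so the 6 and 7 members have no background to be read against.

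**Figure D1:**
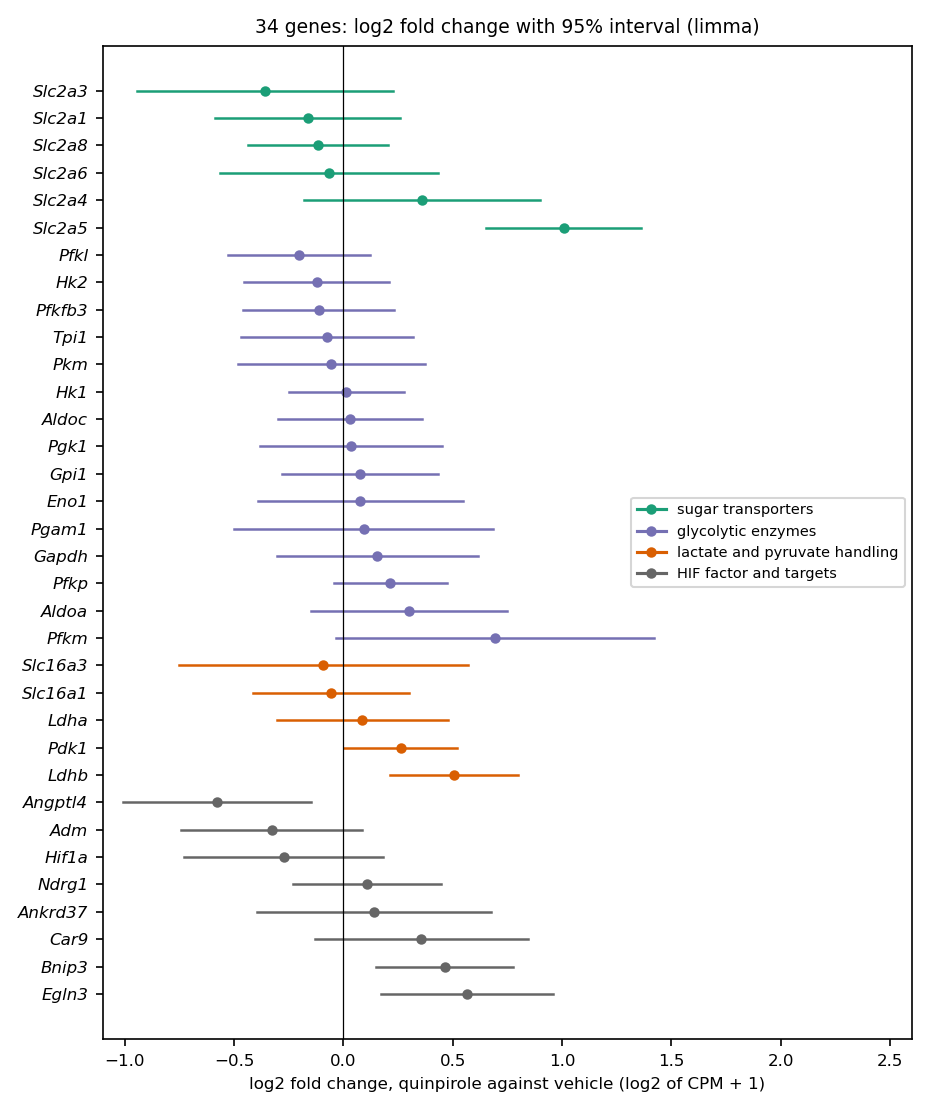
Log2 fold change of quinpirole over vehicle (x axis, log2 of CPM plus 1) for each of the 34 members (y axis, ordered by role), with bars for the 95% interval from limma and colour for the role. The interval of Slc2a5 lies farthest above 0, at 0.65 to 1.36. The intervals of 28 members include 0, and the 6 that do not are those with an unadjusted p below 0.05.

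Among the sugar transporters, Slc2a5, which encodes the fructose carrier Glut5, had the smallest p of all 34 members. It had already stood out in an earlier analysis of the same libraries, so its rank and values are no independent evidence. Vehicle libraries 1 to 5 held 1.13, 1.14, 0.917, 1.19 and 1.68 CPM, and quinpirole libraries 1 to 5 held 2.62, 4.37, 4.09, 2.80 and 3.49 CPM. The lowest quinpirole library thus lay above the highest vehicle library, and the groups did not overlap. The mean was 1.21 ± 0.281 CPM in vehicle and 3.47 ± 0.770 CPM with quinpirole (SD, n = 5 each), a ratio of 2.87. The difference did not pass the adjusted threshold (limma log2 fold change 1.01 with SE 0.16 and adjusted p = 0.0721). Limma's value is smaller than the ratio of means because 1 was added to each CPM value, and the vehicle mean was 1.21 CPM. The log2 fold change was 1.51 with edgeR and 1.51 with DESeq2. On the recovered reads, edgeR gave an adjusted p of 0.0689 and DESeq2 an adjusted p of 0.00171, so that the call depends on the tool. The counts behind these values were small, 7 to 12 reads per vehicle library and 22 to 30 per quinpirole library. Slc2a5 lies at chr4:150119283-150144169 on the + strand, and no exon of another gene overlaps it in the annotation.

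The other 5 sugar transporters overlapped between the groups. Slc2a1, the basal glucose carrier Glut1, had 154, 160.2, 168, 246 and 237 CPM in vehicle libraries 1 to 5 and 134, 148, 188, 256 and 143 CPM in quinpirole libraries 1 to 5 (limma log2 fold change -0.16 with SE 0.19 and adjusted p = 0.797). In each group the library numbered 4 was the highest for Slc2a1. Slc2a3 encodes Glut3, a high-affinity carrier that leukocytes also use. It had 6.29, 2.28, 3.54, 9.11 and 4.19 CPM in vehicle and 3.33, 2.62, 3.41, 3.18 and 4.65 CPM with quinpirole, with the spread of vehicle (SD 2.68) wider than that with quinpirole (SD 0.744), and a log2 fold change of -0.36 with limma's adjusted p = 0.656. Slc2a4 encodes Glut4, the carrier that insulin brings to the surface of muscle and fat cells. It ranged over 11.9 to 22.4 CPM in vehicle and 13.4 to 30.5 CPM with quinpirole (limma log2 fold change 0.36 with SE 0.25 and adjusted p = 0.622). Slc2a6 had a mean of 2.79 ± 1.12 CPM in vehicle and 2.54 ± 0.703 CPM with quinpirole (log2 fold change -0.066 with limma's adjusted p = 0.943). Slc2a8, which encodes an intracellular carrier, had 6.71 ± 1.22 CPM and 6.08 ± 0.890 CPM (log2 fold change -0.12 with limma's adjusted p = 0.812). The median log2 fold change of the 6 transporters was -0.09. Per kb, Slc2a5 was the lowest of the 6 in vehicle (0.356). With quinpirole it was at 1.02 CPM per kb, against 0.792 for Slc2a6 and 0.474 for Slc2a3, but below 1.90 for Slc2a8, 5.93 for Slc2a4 and 49.6 for Slc2a1. Before division by length, Slc2a5 and Slc2a3 were close with quinpirole, at means of 3.47 CPM and 3.44 CPM.

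With limma and with edgeR, 0 of the 15 glycolytic enzymes had an unadjusted p below 0.05, and with DESeq2 1 had, Pfkm. Over all genes 11.4% had one with limma. Of the 15, 10 had a log2 fold change above 0 and 5 below, with a median of 0.03. The enzyme with the largest difference was Pfkm, the muscle form of phosphofructokinase. It had 47.0, 31.5, 37.9, 21.1 and 66.1 CPM in vehicle and 35.8, 40.3, 82.5, 73.9 and 103 CPM with quinpirole, with the 3 highest libraries in the quinpirole group (limma log2 fold change 0.69 with SE 0.33 and adjusted p = 0.464). The platelet form Pfkp had 71.6 to 111 CPM and 102 to 126 CPM (limma log2 fold change 0.21 with SE 0.12 and adjusted p = 0.521), and the liver form Pfkl had a log2 fold change of -0.20 with limma's adjusted p = 0.647. Of the summed CPM per kb of the 3 forms, Pfkm held 43.4% ± 10.0 in vehicle and 54.9% ± 9.59 with quinpirole. This share depends on merged exon lengths of 3340 bases for Pfkm, 6675 for Pfkl and 13401 for Pfkp. Before division by length, Pfkp was the highest of the 3 forms in vehicle. Its mean was 98.1 CPM, against 52.9 CPM for Pfkl and 40.7 CPM for Pfkm. In vehicle 4 this share was 28.8% and in quinpirole 5 it was 66.0%, the lowest and the highest of the 10 libraries.

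Hexokinases start the pathway. Hk2, the inducible form that epidermis uses, had 103, 101, 109, 108 and 134 CPM in vehicle and 82.9, 73.8, 122, 117 and 123 CPM with quinpirole. The range with quinpirole held 4 of the 5 vehicle values (limma log2 fold change -0.12 with SE 0.15 and adjusted p = 0.809). Hk1 had means of 57.8 CPM and 58.0 CPM, and Hk2 held 73.3% ± 3.84 of the CPM per kb of both in vehicle and 71.4% ± 3.38 with quinpirole. Pfkfb3 makes fructose 2,6-bisphosphate, an activator of phosphofructokinase, and ranged over 50.1 to 79.1 CPM in vehicle and 44.7 to 78.3 CPM with quinpirole (log2 fold change -0.11 with limma's adjusted p = 0.829). Aldoa had 977, 928, 936, 1121 and 1498 CPM in vehicle and 1036, 1142, 1295, 2155 and 1217 CPM with quinpirole (limma log2 fold change 0.30 with SE 0.21 and adjusted p = 0.621). Quinpirole 4 was the highest library for Aldoa, while the other 4 quinpirole libraries lay within the range of vehicle. The brain-type aldolase Aldoc was low, with means of 10.4 CPM and 10.6 CPM.

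Gapdh had 2358, 1565, 1869, 2513 and 2287 CPM in vehicle and 1809.9, 1697, 2685, 3289 and 2499.6 CPM with quinpirole, so that a gene often taken as a reference differed between its lowest and highest library by 2.10-fold (limma log2 fold change 0.15 with SE 0.21 and adjusted p = 0.825). Pkm ranged over 606 to 1047 CPM in vehicle and 586 to 1134 CPM with quinpirole (limma log2 fold change -0.056 with SE 0.20 and adjusted p = 0.943). The other steps of the pathway had small differences between the groups. Log2 fold changes were 0.076 for Gpi1 (phosphoglucose isomerase), -0.076 for Tpi1 (triosephosphate isomerase), 0.035 for Pgk1 (phosphoglycerate kinase), 0.093 for Pgam1 (phosphoglycerate mutase) and 0.076 for Eno1 (the common enolase). Pgam1 reached 647 CPM in quinpirole 4 and lay between 201 and 326 CPM in the other 9 libraries.

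Libraries of the same group differed widely across the enzymes. Vehicle 2 was the lowest library for 8 of the 15 enzymes and for 17 of the 34 members. Quinpirole 4 was the highest for 7 of the 15 enzymes and for 12 of the 34 members. Summed over the 15 enzymes, CPM was 6627, 4667, 5661, 7069 and 6903 in vehicle libraries 1 to 5 and 5307, 5143, 7255, 9532 and 6887 in quinpirole libraries 1 to 5. The highest sum was thus in the quinpirole group and the lowest in the vehicle group, and the ranges overlapped. Several members share sequence or position with other genes, and how reads were assigned to such genes is not given in the sources used here. For 11 members the annotation holds a near-identical copy elsewhere (at least 97% identity over at least 200 bases), and for 13 an exon of a gene on the opposite strand overlaps. Gapdh, Eno1, Ldha and Pgk1 are among the first, and Aldoa, Pfkm, Tpi1 and Gapdh are among the second, so their levels carry that uncertainty.

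**Figure D2:**
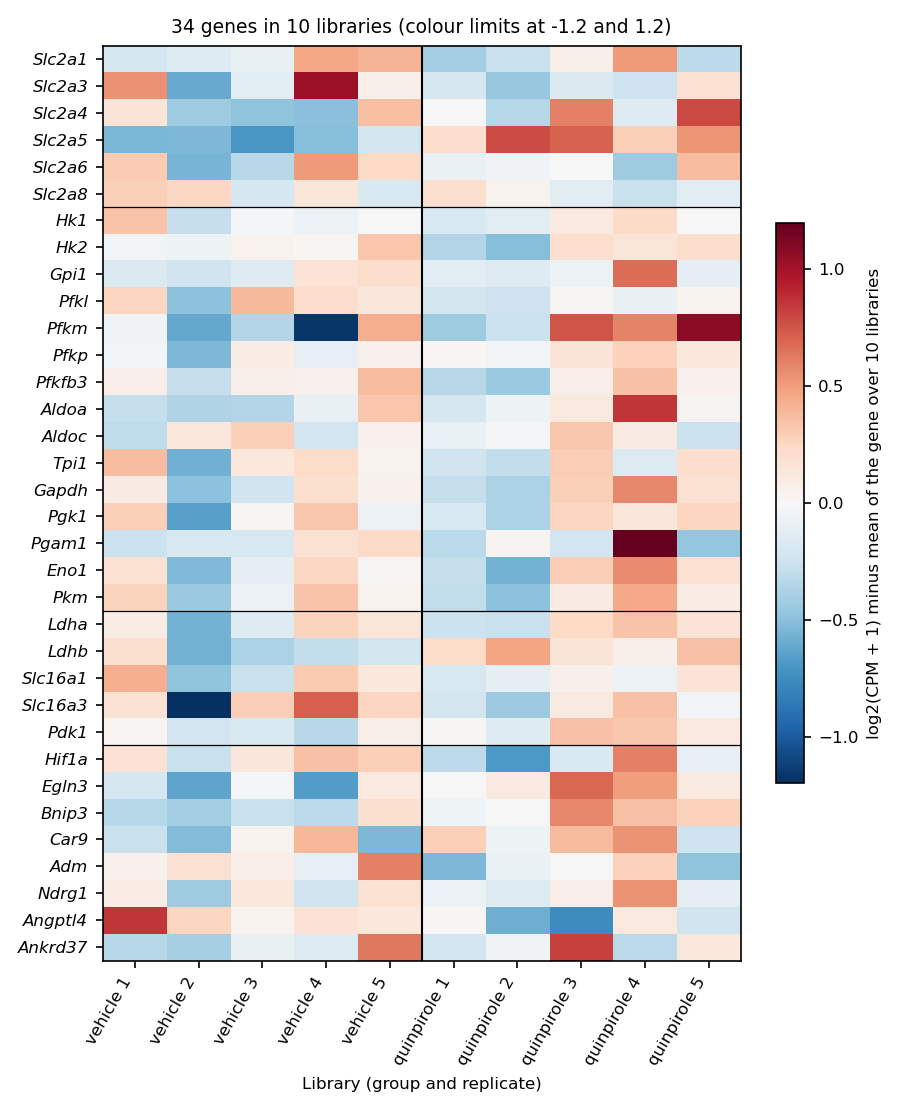
Log2 of CPM plus 1 for each of the 34 members (rows, grouped by role) in the 10 libraries (columns), as a difference from the member's mean over all libraries, with colour from lower to higher. Vehicle 2 is lower for much of the list and quinpirole 4 higher for many enzymes, and Slc2a5 is lower in each vehicle library than in each quinpirole library.

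Of the 5 genes of lactate and pyruvate handling, 2 had an unadjusted p below 0.05, Ldhb and Pdk1, both higher with quinpirole. Over all genes 11.4% had one with limma (6.92% higher and 4.47% lower), and 5 genes are too few to read a share from. Ldhb is the lactate dehydrogenase subunit that favours pyruvate formation. It had 66.4, 38.7, 44.4, 47.2 and 49.6 CPM in vehicle and 67.6, 81.0, 64.5, 60.7 and 74.3 CPM with quinpirole. All but vehicle 1 of the vehicle libraries lay below the lowest quinpirole library (limma log2 fold change 0.51 with SE 0.13 and adjusted p = 0.223). The partner subunit Ldha had 522 to 935 CPM in vehicle and 647 to 982 CPM with quinpirole (log2 fold change 0.086 with limma's adjusted p = 0.897). Ldhb made up 12.1% ± 1.98 of the CPM per kb of both subunits in vehicle and 15.7% ± 3.79 with quinpirole. Pdk1, which inhibits pyruvate dehydrogenase, had 49.9, 41.9, 43.2, 38.7 and 51.5 CPM in vehicle and 49.5, 44.0, 63.0, 61.8 and 53.5 CPM with quinpirole, with overlapping groups (limma log2 fold change 0.26 with SE 0.12 and adjusted p = 0.435). The lactate exporter Slc16a3 (Mct4) had 26.9, 9.54, 29.4, 39.5 and 28.5 CPM in vehicle and 20.2, 17.2, 25.6, 30.4 and 23.1 CPM with quinpirole (log2 fold change -0.091 with limma's adjusted p = 0.940). Vehicle 2 was the lowest of the 10 libraries for Slc16a3. The related transporter Slc16a1 (Mct1) had means of 164 CPM and 154 CPM (log2 fold change -0.055 with limma's adjusted p = 0.932).

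In the HIF group, Egln3 and Bnip3 had unadjusted p-values below 0.05 and were higher with quinpirole, and Angptl4 had one and was lower. Egln3 encodes PHD3, a prolyl hydroxylase that acts on HIF and is itself induced by HIF. It had 171, 127, 194, 124 and 214 CPM in vehicle and 198, 214, 318, 279.7 and 213 CPM with quinpirole. Vehicle 5, at 214.21 CPM, lay above quinpirole 1, quinpirole 2 (213.95 CPM) and quinpirole 5. The other 4 vehicle libraries lay below the lowest quinpirole library (limma log2 fold change 0.56 with SE 0.18 and adjusted p = 0.267). Bnip3, a mitochondrial protein that promotes mitophagy under low oxygen, had 78.8, 74.8, 83.1, 79.8 and 115 CPM in vehicle and 96.5, 100.4, 149.9, 128 and 122 CPM with quinpirole (limma log2 fold change 0.46 with SE 0.14 and adjusted p = 0.259). Vehicle 5 was the one vehicle library above the lowest quinpirole value for Bnip3, and it lay above quinpirole 1 and quinpirole 2. Angptl4 encodes a secreted inhibitor of lipoprotein lipase that fasting and PPAR ligands also raise. It had 59.3, 38.7, 33.3, 36.5 and 35.2 CPM in vehicle and 32.7, 21.1, 18.7, 35.2 and 27.3 CPM with quinpirole, with 4 of the 5 quinpirole libraries below the lowest vehicle library (limma log2 fold change -0.58 with SE 0.20 and adjusted p = 0.291).

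The factor itself, Hif1a, had 612, 451, 594, 692 and 663 CPM in vehicle and 435, 335, 478, 827 and 506 CPM with quinpirole. Quinpirole held both the highest library, replicate 4, and the lowest, replicate 2 (limma log2 fold change -0.27 with SE 0.21 and adjusted p = 0.668). Because HIF is set largely at the level of its protein, Hif1a RNA does not measure its activity. The classical target Car9, a membrane carbonic anhydrase, was low, with 1.38, 0.997, 1.97, 2.77 and 0.979 CPM in vehicle and 2.50, 1.75, 2.73, 3.18 and 1.42 CPM with quinpirole (limma log2 fold change 0.36 with SE 0.22 and adjusted p = 0.576). Adm, the vasodilator peptide adrenomedullin, had 4.89 to 8.53 CPM and 3.33 to 6.61 CPM (limma log2 fold change -0.33 with SE 0.19 and adjusted p = 0.543). Ankrd37 had 6.27 to 13.8 CPM in vehicle and 6.61 to 15.8 CPM with quinpirole (log2 fold change 0.14 with limma's adjusted p = 0.869). Ndrg1, a stress-responsive gene of differentiating epithelium, had a log2 fold change of 0.11 with limma's adjusted p = 0.838. Across the 8 genes, 5 log2 fold changes were above 0 and 3 below, with a median of 0.12. The 8 genes thus did not share a direction, and the 3 with an unadjusted p below 0.05 were split 2 to 1.

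**Figure D3:**
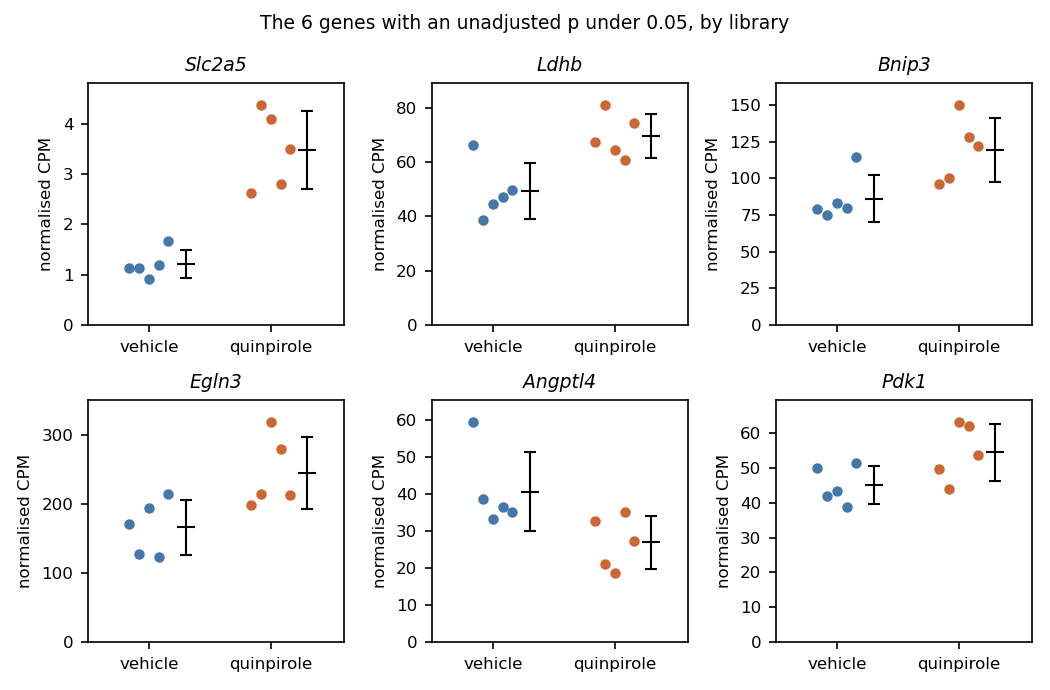
CPM in each of the 5 vehicle and 5 quinpirole libraries (points) with the group mean and SD (horizontal mark and whiskers) for the 6 members with an unadjusted p below 0.05. The groups of Slc2a5 do not overlap, those of the other 5 do, and Angptl4 is the member of the 6 that was lower with quinpirole.

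Whole skin holds several tissues, and marker genes of some of them differed in level between libraries. In bulk RNA, fewer cells of a type and less RNA per cell cannot be told apart. Markers of basal (9 of 9) and suprabasal (8 of 9) keratinocytes were present in each library, as the label of whole skin calls for, and Flg was not among the symbols analysed here. Of 32 tested skeletal muscle genes, 30 had a log2 fold change above 0 (median 1.15, 22 with an unadjusted p below 0.05). The summed level of the list was 1755 to 6848 CPM in vehicle and 3774 to 18333 CPM with quinpirole. Of 13 tested sebaceous gland genes, 13 were above 0 (median 0.71, 10 with an unadjusted p below 0.05), with a summed level of 2356 to 4782 CPM and 4062 to 6310.1 CPM. Of 12 tested neutrophil genes, 10 were below 0 (median -0.58, 1 with an unadjusted p below 0.05), with a summed level of 118 to 332 CPM and 115 to 226 CPM; the defining genes Ly6g, Elane and Ngp were not among the symbols analysed here. The 28 genes of the hair shaft were all below 0 (median -1.60, 0 with an unadjusted p below 0.05 by limma), and their level split the libraries into separate clusters that cut across the groups, so no pooled correlation is given with it. The hair list mean ranged over 0.69 to 6.62 in vehicle and 0.82 to 6.48 with quinpirole, on the log2 scale. No gene of these 4 lists that was measured was at 0 in each of the 10 libraries. Red blood cell markers had 5 of 5 below 0 (median -0.91, 2 with an unadjusted p below 0.05) and a summed level of 166 to 465 CPM in vehicle and 47.4 to 369 CPM with quinpirole. Of 9 endothelial markers, 6 were below 0 (median -0.42, 3 with an unadjusted p below 0.05), with 155 to 296 CPM and 132 to 231 CPM. The 7 melanocyte markers were below 0 (median -0.85, 0 with an unadjusted p below 0.05 by limma). The muscle list mean was 4.99, 4.32, 5.01, 4.17 and 5.59 in vehicle libraries 1 to 5 and 5.02, 5.03, 5.82, 6.89 and 6.08 in quinpirole libraries 1 to 5, so that quinpirole 4, the highest library for many of the enzymes, was also the highest for muscle.

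The members were set against these marker levels library by library. Correlations over the 10 libraries were computed for 34 members with 12 other marker lists, 408 in all, with p-values adjusted over the 442 that include the hair list. Without adjustment, 10 members correlated positively with the macrophage and monocyte list, 8 with the muscle list, 6 with the neutrophil list and 2 with the sebaceous gland list. There were 4 each with the T cell, adipocyte, endothelium and suprabasal lists, and 1 each with the basal keratinocyte and red blood cell lists. Negative correlations numbered 4 with the melanocyte list, 3 with the fibroblast list and 1 each with the muscle, endothelium, suprabasal and red blood cell lists. The correlations were computed for the members only. How large a share of all genes would correlate with each list is therefore not known, and the counts have no background. Without vehicle 2 and quinpirole 5, the 2 libraries farthest from the median of the macrophage and monocyte list, r for its 10 members ranged from 0.12 for Ldhb to 0.74 for Slc16a1.

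A single relation passed adjustment by Pearson's r, and 4 passed by Spearman's rho, that one among them. Ldhb followed the sebaceous gland mean (Pearson's r = 0.96, permutation p = 2.00e-05, adjusted p = 0.00884, Spearman's rho = 0.99, permutation p = 3.00e-05, adjusted p = 0.0133), with r = 0.93 without the 2 libraries farthest from the median of that list and r = 0.91 for deviations from the group means. With the sebaceous list mean as a covariate, the log2 fold change of Ldhb was 0.087, against 0.51 without it. Slc2a5 had r = 0.78 with the same list (permutation p = 0.00827, adjusted p = 0.159; rho = 0.68, permutation p = 0.0347), r = 0.66 without the 2 libraries farthest from the median, and r = 0.34 for the deviations, and its log2 fold change with that covariate was 0.86. The other 3 relations passed by rho and not by r. They were Bnip3 with the muscle list (r = 0.84, permutation p = 0.00177, adjusted p = 0.0888, rho = 0.93, permutation p = 0.000370, adjusted p = 0.0442), with r = 0.87 without the 2 libraries farthest from the median. Hif1a followed the neutrophil list (r = 0.69, permutation p = 0.0261, adjusted p = 0.289, rho = 0.93, permutation p = 0.000360, adjusted p = 0.0442), with r = 0.95 without such libraries. Aldoa ran against the melanocyte list (r = -0.85, permutation p = 0.000400, adjusted p = 0.0604, rho = -0.93, permutation p = 0.000400, adjusted p = 0.0442), with r = -0.78 without them. The melanocyte list mean was highest in vehicle 2, vehicle 3 and quinpirole 1 and lowest in vehicle 5 and quinpirole 4. The hair list mean was highest and lowest in the same libraries, so the melanocyte and hair lists cannot be told apart in this relation. For deviations from the group means, r was 0.72 for Bnip3 with the muscle list and 0.63 for Hif1a with the neutrophil list.

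The members nearest to the muscle list by Pearson's r did not pass adjustment by r. It was 0.89 for Pdk1, 0.88 for Pfkm, 0.85 for Egln3, 0.84 for Bnip3 and 0.82 for Aldoa. Their permutation p-values were 0.000410 to 0.00383, adjusted to 0.0604 to 0.128, and r was 0.63 to 0.95 without the 2 libraries farthest from the median of the list. Spearman's rho was 0.82 to 0.93 for these 5 genes (permutation p 0.000370 to 0.00575, adjusted to 0.04 to 0.16). Their r for deviations from the group means was 0.72 to 0.83. With the mean of the muscle list added to the fit, the log2 fold change of Pfkm was -0.029 against 0.69, that of Egln3 0.23 against 0.56, that of Bnip3 0.21 against 0.46 and that of Pdk1 0.041 against 0.26. The median over the 34 members was then -0.17. Slc2a5 kept a log2 fold change of 1.01 with the muscle covariate and of 0.97 with the neutrophil covariate. Slc2a3 followed the neutrophil list with r = 0.91 (permutation p = 0.00100, adjusted p = 0.0884; rho = 0.77, permutation p = 0.0122). This was r = 0.54 without the 2 libraries farthest from the median, so the size of r depends on those samples. For deviations from the group means, r was 0.89 over all 10 libraries. The log2 fold change of Slc2a3 with the neutrophil covariate was 0.023. What part the tissues had in the members' values was not tested. The covariates themselves shifted between the groups. The sebaceous gland list mean was 5.02 to 5.91 in vehicle and 5.80 to 6.42 with quinpirole. The muscle list mean was 4.17 to 5.59 in vehicle and 5.02 to 6.89 with quinpirole. With 5 libraries per group, the covariate fits therefore cannot tell tissue amount from treatment.

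**Figure D4:**
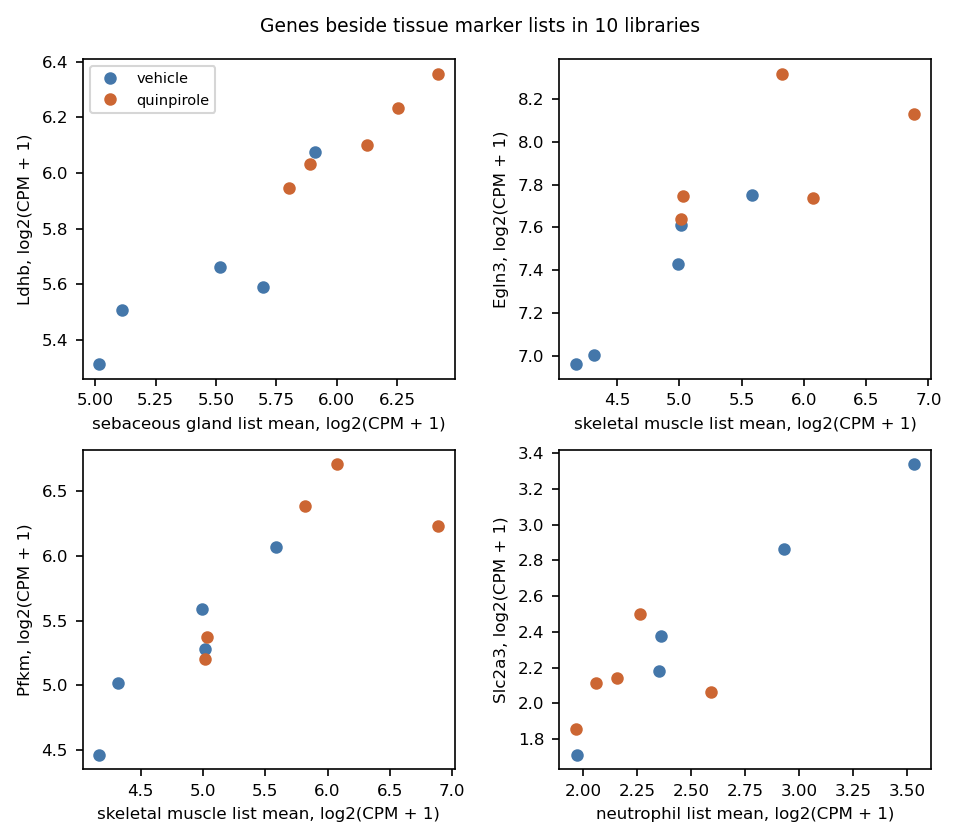
Log2 of CPM plus 1 of Ldhb, Egln3, Pfkm and Slc2a3 (y axes) against the mean log2 level of a marker list (x axes) in the 10 libraries, coloured by group. Ldhb lies near a line over both groups (r = 0.96), and the vehicle library at the upper right of the Slc2a3 panel, replicate 4, is one of the 2 whose removal gave r = 0.54.

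Further genes of the same pathways, taken from lists drawn up by pathway, numbered 155, of which 135 were tested. Of these, 75 had a log2 fold change above 0 and 60 below, with a median of 0.05. Pck1 alone of them passed the adjusted test and was lower. It is itself the only gene called lower among all 14548 tested (0.00687%), so that share is no separate background. Without adjustment 18 were higher (13.3%) and 9 lower (6.67%), against 6.92% and 4.47% of all genes. The groups did not overlap for 2 higher and 2 lower genes of the 135, against 1.34% and 0.859% of all genes. Pck1 encodes the cytosolic phosphoenolpyruvate carboxykinase, which opens gluconeogenesis and, in fat cells, glyceride synthesis. It fell from 30.5 ± 10.7 CPM to 7.42 ± 2.18 CPM (SD, n = 5 each), with groups that did not overlap (limma log2 fold change -1.88 with SE 0.25 and adjusted p = 0.0441). On the recovered reads edgeR gave Pck1 an adjusted p of 0.0512. The call held in 10 of 25 alternatives, with log2 fold changes of -2.04 to -1.48, and leaving out any 1 library other than vehicle 5 ended it. Pck1, Mpc1 and Slc2a5 stood out in an earlier analysis of the same libraries, so their values here are no independent evidence. Beside Pck1, 9 of 14 adipocyte markers had a log2 fold change above 0 and 5 below (median 0.18), and their part in its level was not tested.

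In the list of pyruvate entry and gluconeogenesis, 6 of 18 tested genes had an unadjusted p below 0.05 and were higher, and 1, Pck1, was lower. Over all genes with limma, 6.92% were higher and 4.47% lower at that threshold, and the groups of 2.20% did not overlap. Mpc1, a subunit of the mitochondrial pyruvate carrier, had 59.2, 51.0, 47.4, 60.5 and 79.7 CPM in vehicle and 91.8, 106, 82.7, 107 and 119 CPM with quinpirole. These groups did not overlap, though the adjusted threshold was not met with limma (limma log2 fold change 0.77 with SE 0.14 and adjusted p = 0.113). Mpc1 was called in 3 of 25 alternatives, with DESeq2 (adjusted p = 0.000441), with the hair list as covariate (limma, adjusted p = 0.0468) and without vehicle 5 (limma, adjusted p = 0.0392). DESeq2 called 1.51% of all genes. The other subunit, Mpc2, had a mean of 40.4 ± 6.05 CPM and 57.8 ± 12.7 CPM (limma log2 fold change 0.49 with SE 0.16 and adjusted p = 0.270). Among the other glycolytic isozymes and regulators, 4 of 14 were higher and 2 lower at an unadjusted p below 0.05. Pgam2, the muscle phosphoglycerate mutase, had a log2 fold change of 1.07 with limma's adjusted p = 0.281, and Ldhd, the D-lactate dehydrogenase, one of -0.66 with limma's adjusted p = 0.227. With the muscle list in the fit the log2 fold change of Pgam2 was 0.18. That of Mpc2 was 0.18 with the sebaceous gland list.

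In glycogen metabolism, 3 of 21 genes were higher and 0 lower at an unadjusted p below 0.05 with limma. For this and the lists that follow, the shares of all genes were 6.92% higher, 4.47% lower and 2.20% without overlap. Log2 fold changes were 1.32 for Ppp1r3c, a glycogen-targeting subunit of protein phosphatase 1, 0.63 for the branching enzyme Gbe1 and 0.54 for the liver-type phosphorylase Pygl. With the muscle list in the fit they were 0.44, 0.34 and 0.34, and with the sebaceous gland list that of Ppp1r3c was 1.98. DESeq2 called Ppp1r3c (adjusted p = 0.0159) and Gbe1 (adjusted p = 0.0185), where it called 1.51% of all genes. Of 10 other sugar transporters 1 was higher, Slc50a1 (0.27 with limma's adjusted p = 0.357). In the pentose phosphate list 0 of 10 genes, and in the list of fructose, polyol and mannose use 0 of 17, had an unadjusted p below 0.05 with limma. Of the genes of oxygen sensing, Vhl, the ubiquitin ligase subunit that removes HIF, had 22.1 CPM and 17.6 CPM without overlap (log2 fold change -0.33 with limma's adjusted p = 0.302). Egln1, the main HIF prolyl hydroxylase, had a log2 fold change of 0.26 with limma's adjusted p = 0.438. Of 35 other HIF targets 3 were higher and 5 lower at an unadjusted p below 0.05, among them the haem oxygenase Hmox1 (0.69), the cystine carrier Slc7a11 (-0.86) and the collagen cross-linking enzyme Lox (-0.64). DESeq2 called Hmox1 (adjusted p = 0.0104). With the neutrophil list in the fit the values were -0.42 for Slc7a11 and -0.41 for Lox, and with the sebaceous gland list 0.46 for Hmox1, -1.31 for Slc7a11, -1.26 for Lox, -0.56 for Vhl and 0.13 for Slc50a1. With the muscle list they were -0.31 for Lox, -0.18 for Vhl and 0.075 for Egln1. Without both libraries numbered 4, Vhl was at -0.21, and without vehicle 2 Egln1 was at 0.17.

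**Figure D5:**
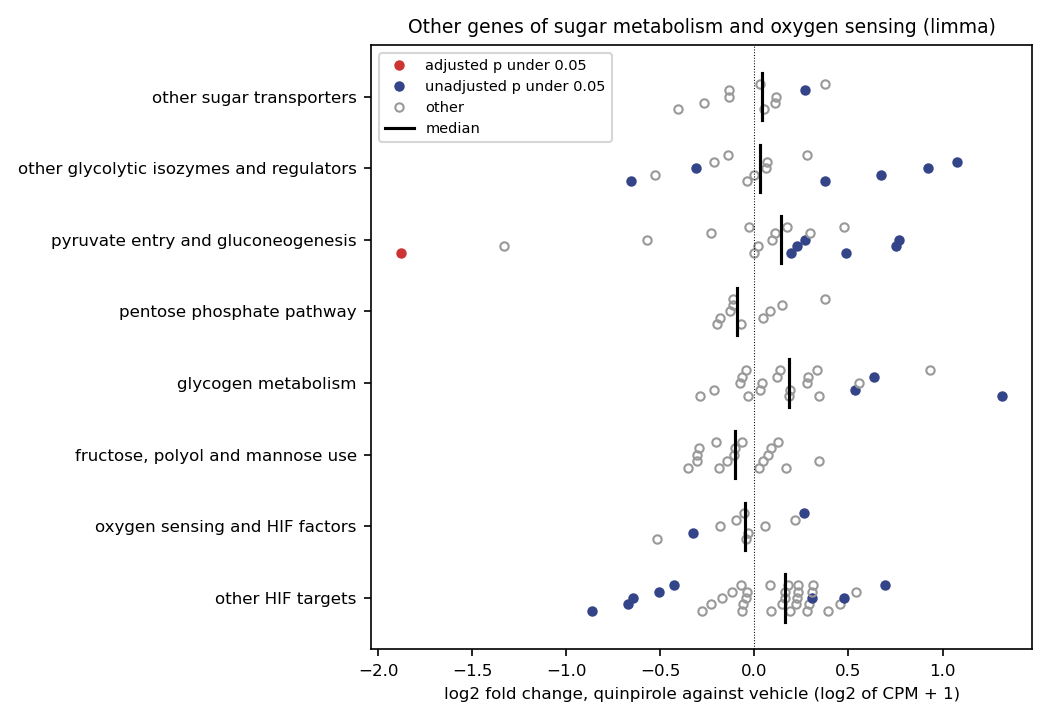
Log2 fold change of quinpirole over vehicle (x axis) of the 135 tested related genes, one point per gene in 8 lists (y axis), with a bar for the median of each list and colour for limma's p. The single gene past the adjusted threshold is Pck1, at -1.88, and the pentose phosphate and the fructose lists hold no gene below an unadjusted p of 0.05.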

How the data were processed

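Ribosomal RNA was depleted from total skin RNA and directional libraries were made for 5 samples per group, per the labels' protocols. Tools named in the submitters' processing notes, without their roles, are edgeR, RSEM 1.3.0, Bowtie2 and Trimmomatic 0.38, and the build is mm10. The annotation and the use of strand in counting were not stated in those notes. The values the authors deposited are a normalised signal per gene and library. All values (100%) were whole multiples of the value of 1 read, within 1e-06 of a read, and equalled CPM on effective library sizes from edgeR's TMM method. Whole counts were thus recovered from them and are called reads here. Whether these counts were estimates rounded at an earlier step is not known here.

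Genes with at least 1 CPM in at least 5 libraries were tested with limma 3.58.1 (trend, two-sided, no covariates, pseudocount 1) in R 4.3.3. edgeR 4.0.16 and DESeq2 1.42.0 were run on the recovered reads. The 34 members, the related lists and the marker lists were chosen with earlier results of these data known. Named with full values are the 12 members with the smallest p, members whose groups do not overlap, 18 members chosen by name, and in each related list the called genes and up to 3 genes with the smallest p below 0.05. Of the genes so chosen, 1 is not reported here. Fam57b, Lrp2bp, Senp1 and Eno1b were added after their values were seen. Positions came from GENCODE on the same build, in which 33 members matched 1 gene and Aldoa matched 2 entries, of which the older was used. Promoters came from RefSeq. The fitting steps were tested on simulated data. No library repeated another: within a group, the smallest chi-square per gene between 2 libraries was 6.55. The labels used here name no batch. Alternatives covered the pseudocount, the filter, the variance model, quantile normalization, both count tools, the replicate number as a block, list means as covariates and leaving out libraries. Covariates of the sebaceous gland and neutrophil lists were added after seeing the data.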

Additional observations from a re-analysis of the deposited data

Results flagged for a closer look

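In 5 of 98 groups of 5 libraries (49 genes in 2 groups), 1 library stood apart from the other 4 by more than 0.71 of the group's range. Chance flags about 1 group in 20. Hk2 was 133.5 CPM in vehicle 5, against 101 to 109 CPM in the other vehicle libraries. Bnip3 was 115 CPM in the same library, against 74.8 to 83.1 CPM. Angptl4 was 59.3 CPM in vehicle 1, against 33.3 to 38.7 CPM in the other vehicle libraries. Slc16a3 was 9.54 CPM in vehicle 2, against 26.9 to 39.5 CPM. Gpi1 was 359.7 CPM in quinpirole 4, against 203 to 215 CPM in the other quinpirole libraries.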

How the results depend on the processing

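Of 25 alternatives, none called a member except limma without a trend, limma with array weights and DESeq2, which called 1 each, Slc2a5. Its log2 fold change was 0.44 to 1.51 in the 24 that tested it, lowest with a pseudocount of 5 and highest with DESeq2. A filter at 5 CPM left out 4 members. Over all genes the count of 3 called became 5 with a pseudocount of 0.1, 6 without a filter, 5 with a filter at 5 CPM, 9 without a trend, 21 with array weights, 1 with edgeR, 219 with DESeq2, 14 with the hair list as covariate, and 0 with the muscle, sebaceous gland or neutrophil list as covariate or without both libraries numbered 4. Leaving out 1 library gave 0 to 10 calls: 10 without vehicle 5, 1 without vehicle 3 and 0 without each of the others. The replicate number as a block gave 0 calls. The numbers were not taken as a pairing, since the same-numbered libraries correlated at -0.24 to 0.22 and 1 of 5 vehicle libraries correlated best with its own number. The median of the members was -0.17 with the muscle covariate.

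Directions held in all alternatives for 14 of 34 members, and 69 of 846 values changed sign. The log2 fold changes that did were, with the muscle list as covariate, Slc2a8 0.10, Hk1 -0.17, Gpi1 -0.19, Pfkm -0.029, Aldoa -0.088, Aldoc -0.035, Gapdh -0.18, Pgk1 -0.17, Pgam1 -0.29, Eno1 -0.29, Ldha -0.18, Ndrg1 -0.22 and Ankrd37 -0.020. With array weights they were Slc2a6 0.039, Hk1 -0.016, Gpi1 -0.0071 and Pgam1 -0.13. With the hair list they were Hk1 -0.016, Gpi1 -0.037, Pgam1 -0.11 and Ldha -0.0027. With the sebaceous gland list they were Hk1 -0.091, Hk2 0.035, Pgk1 -0.19 and Ldha -0.068. With the neutrophil list they were Slc2a3 0.023, Slc2a6 0.14, Aldoc -0.080, Tpi1 0.092, Pkm 0.19, Slc16a1 0.14 and Slc16a3 0.30. Without both libraries numbered 4 they were Slc2a6 0.15, Hk1 -0.058, Gpi1 -0.031, Aldoc -0.046, Tpi1 0.0013, Pgam1 -0.14, Slc16a1 0.027 and Ndrg1 -0.062. Leaving out 1 library gave Aldoc -0.049 to 0.10, Ankrd37 -0.047 to 0.32, Eno1 -0.055 to 0.23, Gpi1 -0.082 to 0.14, Hk1 -0.056 to 0.10, Ldha -0.046 to 0.16, Ndrg1 -0.015 to 0.17, Pgam1 -0.20 to 0.22, Pgk1 -0.12 to 0.13, Pkm -0.18 to 0.060, Slc16a1 -0.18 to 0.048, Slc16a3 -0.41 to 0.076, Slc2a6 -0.21 to 0.054 and Tpi1 -0.23 to 0.0078. The cause was not tested. Slc2a5, Car9, Slc2a3, Slc2a6, Slc2a8 and Adm had fewer than 70 reads in each library, which limits their precision.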

Other observations

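Some members overlap, on the opposite strand, a gene that was also measured. Fam57b, whose exons overlap those of Aldoa, had a mean of 2.16 CPM in vehicle and 5.84 CPM with quinpirole (log2 fold change 1.11 with limma's adjusted p = 0.0721), beside 0.30 for Aldoa. Lrp2bp, which overlaps Ankrd37, had 1.36 CPM and 2.30 CPM (log2 fold change 0.46 with limma's adjusted p = 0.408), beside 0.14 for Ankrd37. Senp1, which overlaps Pfkm, had 83.3 CPM and 84.6 CPM (log2 fold change 0.0077 with limma's adjusted p = 0.988), beside 0.69 for Pfkm. Eno1b, a near-identical copy of Eno1, had 529 CPM and 477 CPM, close to the 519 CPM and 559 CPM of Eno1. Their log2 fold changes had opposite signs, -0.15 for Eno1b and 0.076 for Eno1, neither past the threshold. How reads were divided between such genes is not given in the sources used here.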
